A study of Homo sapiens with 104 samples.

Results

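The comparison described here set untreated lymphoblastoid cell lines with little MGMT transcript against untreated lines that express it. Of 24 numbered human lines, 7 were low-MGMT and 17 were MGMT-expressing, on 14 and 34 of the 104 arrays of the series. Lines were selected on the measured level of MGMT itself: low lines had a mean level under 7 over their duplicate arrays, and expressing lines had 7 or more. Levels are log2 of the deposited intensity plus 16, quantile normalised over the 52 untreated arrays, so that 1 unit is a doubling for bright probe sets and understates the ratio of dim ones. The difference in MGMT is therefore a description and was not tested.

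The study measured transcripts of lymphoblastoid lines before and after exposure to the methylating agent MNNG, and also measured how far MNNG killed them. Lymphoblastoid lines are B cells that grow without limit in culture, usually after transformation with Epstein-Barr virus. Both groups used here were untreated cells grown to mid log phase, and no MNNG array entered any comparison. Each line is 1 value, the mean of its duplicates. Nothing states that duplicates came from separate cultures, and the number of lines limits the precision.

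MGMT encodes the methyltransferase that removes methyl groups from the oxygen of guanine by taking them onto one of its own cysteines, after which the protein is degraded. Cells without it keep methylated guanine, which mispairs at replication and is then acted on by mismatch repair, and this is why low-MGMT cells are known to be sensitive to methylating drugs. In tumours and in many cultured lines the gene is shut off together with methylation of the CpG island at its start. The island is shown here because it is the regulatory sequence that low MGMT is best known for. The promoter from 250 bases before to 50 after the gene's start, from RefSeq (GRCh38.p14), lies at chr10:129466991-129467290 on the plus strand. Capitals mark GGGCGG, the box bound by Sp-family factors, on either strand, including overlapping matches.
MGMT: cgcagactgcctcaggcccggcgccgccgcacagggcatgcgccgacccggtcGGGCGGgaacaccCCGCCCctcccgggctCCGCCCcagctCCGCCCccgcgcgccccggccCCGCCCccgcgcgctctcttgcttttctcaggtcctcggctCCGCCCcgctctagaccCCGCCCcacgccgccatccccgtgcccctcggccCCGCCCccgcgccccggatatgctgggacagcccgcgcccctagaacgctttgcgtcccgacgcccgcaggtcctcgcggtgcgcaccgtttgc
This stretch held 45 CG dinucleotides, had a GC content of 78.7%, and held 8 matches to GGGCGG, 1 on the plus and 7 on the minus strand. The same motif was in 45.0% of the 35116 promoters of that table. Methylation was not measured here.

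Among the low lines MGMT was 5.10 in line 6, 5.10 in line 4, 5.79 in line 11, 5.85 in line 9, 6.20 in line 18, 6.37 in line 19 and 6.74 in line 20. Expressing lines had a lowest level of 7.24, a median of 7.73 and a highest level of 8.47. Lines 6 and 4 sat close to 5, the lowest level the scale allows, while the other low lines filled the range up to the threshold. In intensity units, the lowest, median and highest low line had 18.5, 53.7 and 98.3, and expressing lines had 138, 187 and 337. The values just inside and just outside the threshold were 6.74 in line 20 and 7.24 in line 7, a gap of 0.51, or 1.42-fold. The SD between the duplicates of a line reached 0.26 in low and 0.39 in expressing lines, and 0 lines had duplicates on opposite sides of 7.

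**Figure D1:**
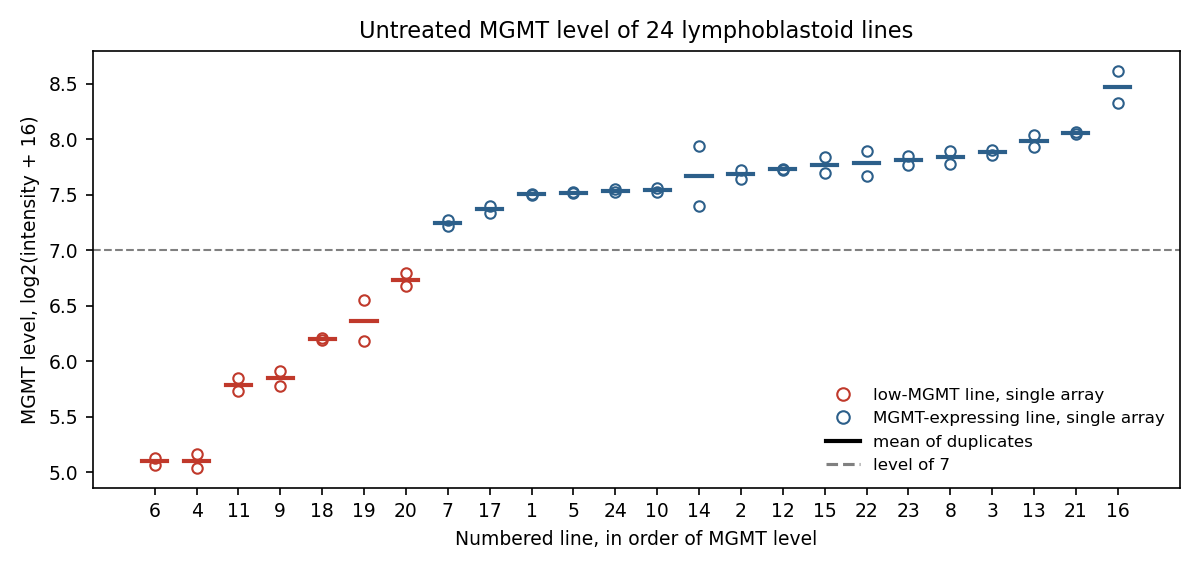
Level of MGMT (vertical axis, log2 of intensity plus 16) in the 24 untreated lines in order of level (horizontal axis), with each array as an open circle, the mean of duplicates as a bar and the level of 7 that chose the groups as a dashed line. Low-MGMT lines run from 5.10 to 6.74 and MGMT-expressing lines from 7.24 to 8.47.

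Every line had the transcripts of a B cell. MS4A1 lay between 11.6 and 12.7, PAX5 between 10.2 and 11.1 and CD79A between 10.3 and 11.0 over the 24 lines, and CD74 and HLA-DRA were higher still. The defining markers CD3E of T cells, CD14 of monocytes and EPCAM of epithelia stayed at or under 6.04 in every line, while COL1A1, a collagen of fibroblasts, lay above that at 6.91 to 7.29 in low lines and 6.41 to 7.27 in expressing lines. The mean of 41 B-cell identity genes was 8.20 to 8.66 in low and 8.23 to 8.75 in expressing lines. Plasma cell genes were also high, with a mean of 17 genes of 8.79 to 9.87 in low and 8.46 to 10.0 in expressing lines. The mean of the 28 T and NK cell markers on the array was 5.84 to 6.15 in low and 5.84 to 6.20 in expressing lines. That of 19 myeloid markers was 5.89 to 6.25 in low and 5.70 to 6.28 in expressing lines, and that of 24 fibroblast and epithelial markers 6.02 to 6.28 and 5.95 to 6.17. LYZ, a lysozyme of myeloid cells, was above the floor at 7.50 to 8.26 in low lines and 5.39 to 8.21 in expressing lines. Arrays of low lines were brighter: the array median before normalisation was 5.85 to 6.09 in low lines (median 6.00) and 5.20 to 6.00 in expressing lines (median 5.59). Under 20 intensity units lay 0.19% to 8.41% of probe sets in low lines (median 0.77%) and 0.56% to 48.8% in expressing lines (median 25.1%). Only 4 expressing lines, lines 7, 10, 12 and 17, had an array median in the range of low lines. Leading differences are therefore also given from a fit with the array median of the line as a covariate. The tilt of the GAPDH control probe sets, 3' minus 5', averaged -0.02 in both groups.

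No gene passed the test across all genes. Of 13816 genes tested with limma, 0 (0%) had a Benjamini-Hochberg adjusted p below 0.05, and the smallest adjusted p was 0.0927. At an unadjusted p below 0.05 there were 1840 genes (13.3%), of which 814 (5.89%) were higher and 1026 (7.43%) lower in low-MGMT lines. The groups of lines overlapped for every gene: 0 genes (0%) had all low lines above all expressing lines, and 0 (0%) had them all below. The median difference over all genes, low minus expressing, was -0.01. With the array median as covariate, 0 genes passed, the smallest adjusted p was 0.408, and 691 genes (5.00%) had an unadjusted p below 0.05. The count depended on other settings. With values as deposited, where the median difference over all genes was 0.24, 5691 genes passed, 5661 of them higher and 30 lower. With each array centred on its median, where it was -0.11, 296 passed, 39 higher and 257 lower. Treating the single arrays as values with the line as a random block gave 88, of which 19 were on the interferon list described next. Without line 10, 24 genes passed, and without line 5, 12 or 20 there was 1 each, LINC00674, PECAM1 and KMT5C in that order. With the 3 low lines between 6 and 7 left out there were 6, all higher: CAPN8, GTSF1, MAGEF1, MTMR6, PLAU and PTPN13. Every p quoted below is from limma, in the fit of the 24 lines without a covariate unless another fit or set of lines is named. A value after ± is the standard error of the difference in that fit of the 24 lines. Differences from other fits or settings are given without one.

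The gene group that stood lowest in low-MGMT lines was the interferon response. Type I interferons signal through their receptor to a transcription factor complex that binds response elements at the start of antiviral genes, and B cells carrying Epstein-Barr virus are known to keep part of this response on. The list held antiviral effectors, viral RNA sensors, ubiquitin-like modifiers and the factors that drive them. Of 40 genes written, 38 were tested, and all 38 were lower in low-MGMT lines. The list was chosen with earlier results of these data known. Its members moved together by line and are not independent, so the counts are a description. At an unadjusted p below 0.05, 32 of 38 were lower and 0 higher, beside 7.43% of all genes lower, and 0 passed after adjustment. Their median difference was -0.90, beside -0.01 for all genes. With the array median as covariate it was -0.72, and 14 of 38 were lower at an unadjusted p below 0.05, beside 2.82% of all genes in that fit. In bulk samples, fewer cells carrying a transcript and less of it per cell cannot be told apart.

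The list mean per line showed both a shift and an overlap. It was 6.80, 8.08 and 9.48 in the lowest, median and highest low line, and 8.35, 9.13 and 10.17 in expressing lines. The SD of the list mean was 0.85 in low and 0.51 in expressing lines. The fit takes a common spread for both groups, so the counts at an unadjusted p below 0.05 may be too high. The low line 9, with 9.48, was higher than 14 of the 17 expressing lines, and 3 expressing lines were above it. Line 11 was the lowest of all 24 lines for 31 of the 38 genes, and line 9 was the highest low line for 35. Without line 11 the median difference was -0.64, and 21 of 38 members, beside 5.59% of all genes, were lower at an unadjusted p below 0.05. Leaving out any other single line kept the median between -1.06 and -0.82. Set against the 4 expressing lines with array medians like theirs, a comparison added after the data were seen, the 7 low lines had a median difference of -0.72, with 5 of 38 members lower at that p, beside 1.95% of all genes.

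**Figure D2:**
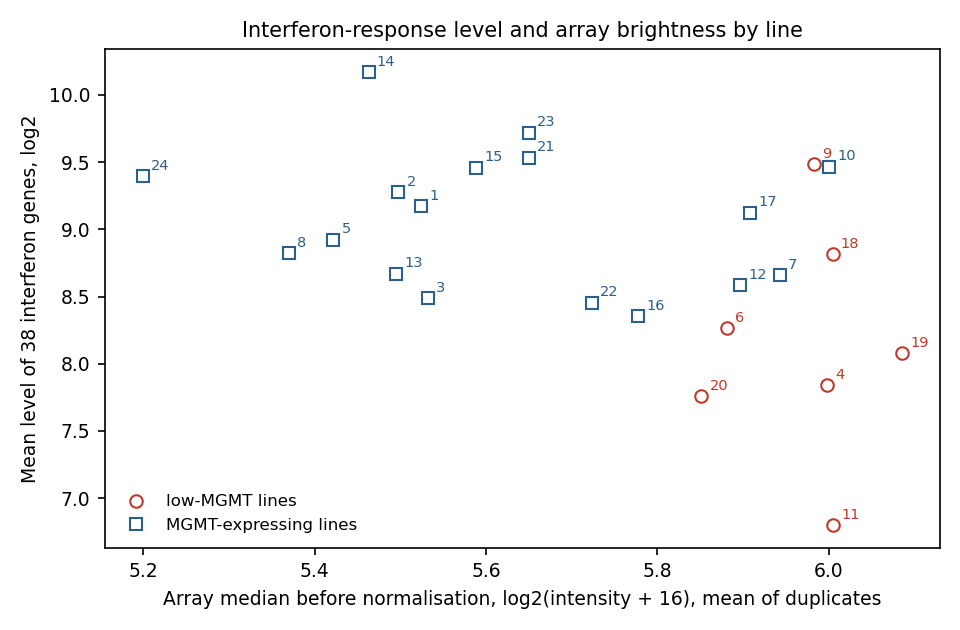
Mean level of 38 interferon genes (vertical axis, log2) against the array median before normalisation (horizontal axis, log2 of intensity plus 16), for 7 low-MGMT lines (circles) and 17 MGMT-expressing lines (squares), each labelled with its number. Low lines lie at the bright end, between 5.85 and 6.09, and spread from 6.80 in line 11 to 9.48 in line 9.

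Among the antiviral effectors, IFI44L, an interferon-induced gene with antiviral activity, had the largest difference on the list. Its level was 5.21, 9.19 and 11.32 in the lowest, median and highest low line, against 10.02, 11.00 and 12.08 in expressing lines. Line 11 was near the floor, 5 of the 7 low lines were below every expressing line, and the other 2 lay inside their range. The difference was -1.95 ± 0.49 (unadjusted p = 0.00052, adjusted p = 0.115), and -1.75 with the covariate. The SD of IFI44L was 2.02 in low and 0.55 in expressing lines. The fit takes a common spread for both groups, so this standard error and p may be too small. OAS2, which makes the second messenger that activates the RNA-degrading RNase L, was 6.60, 8.35 and 9.75 in low lines, against 8.74, 9.67 and 10.39 in expressing lines. Again 5 low lines were below every expressing line, and the difference was -1.21 ± 0.29 (adjusted p = 0.112), or -0.96 with the covariate (unadjusted p = 0.020). MX1, a GTPase that blocks viral nucleocapsids, was 7.99, 10.75 and 11.42 in low lines, against 10.36, 11.39 and 11.99 in expressing lines. For MX1 only line 11 was below the expressing range, and the difference was -0.79 ± 0.30 (unadjusted p = 0.014, adjusted p = 0.247), or -0.64 with the covariate (unadjusted p = 0.119). IFIT1, which binds viral RNA caps, differed by -1.75 ± 0.59, and CMPK2, a mitochondrial nucleotide kinase, by -1.85 ± 0.55. With the covariate these were -1.15 for IFIT1 (unadjusted p = 0.144) and -1.47 for CMPK2 (unadjusted p = 0.056). EIF2AK2, the double-stranded RNA kinase PKR, was not on the list and was chosen after its values were seen. Its levels were 8.49, 9.09 and 9.83 in low lines, against 9.39, 9.65 and 10.21 in expressing lines, with 5 low lines below all expressing lines and a difference of -0.60 ± 0.14 (adjusted p = 0.102).

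Among the ubiquitin-like modifiers, ISG15 was 7.85, 9.92 and 11.94 in low lines, against 9.80, 11.41 and 12.75 in expressing lines. Only 3 low lines were below the expressing range, and the highest low line was above the expressing median. The difference was -1.53 ± 0.40 (adjusted p = 0.123), and -1.06 with the covariate. USP18, the protease that removes ISG15 and damps interferon signalling, differed by -0.74 ± 0.30. LY6E, a membrane protein that limits virus entry, had the smallest p on the list: its levels were 6.79, 8.09 and 9.06 in low lines, against 7.98, 9.28 and 9.85 in expressing lines. All 7 low lines were below the expressing median and 3 were below every expressing line, with a difference of -1.10 ± 0.25 (adjusted p = 0.102). With the covariate LY6E was at -0.74 (unadjusted p = 0.030). EPSTI1, an interferon-induced gene of epithelial and immune cells, was 7.36, 8.20 and 9.47 in low lines, against 8.41, 9.21 and 10.04 in expressing lines. Its difference was -0.93 ± 0.23 (adjusted p = 0.115), with 4 low lines below the expressing range.

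Sensors and regulators were also lower in low lines, and no difference between members was tested. IFIH1, the sensor of long double-stranded RNA, differed by -0.90 ± 0.26 (unadjusted p = 0.0019) and IRF7, the factor that amplifies interferon production, by -0.74 ± 0.23 (unadjusted p = 0.0035). With the covariate IFIH1 was at -0.97 (unadjusted p = 0.010) and IRF7 at -0.57 (unadjusted p = 0.073). The smallest differences on the list were -0.13 ± 0.15 for TRIM22, -0.16 ± 0.11 for IRF9, a subunit of the complex that binds the response elements, and -0.19 ± 0.13 for BST2, which tethers budding virus. Of the genes in these paragraphs LY6E was chosen by the rule for named genes, and the others were chosen after their values were seen.

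**Figure D3:**
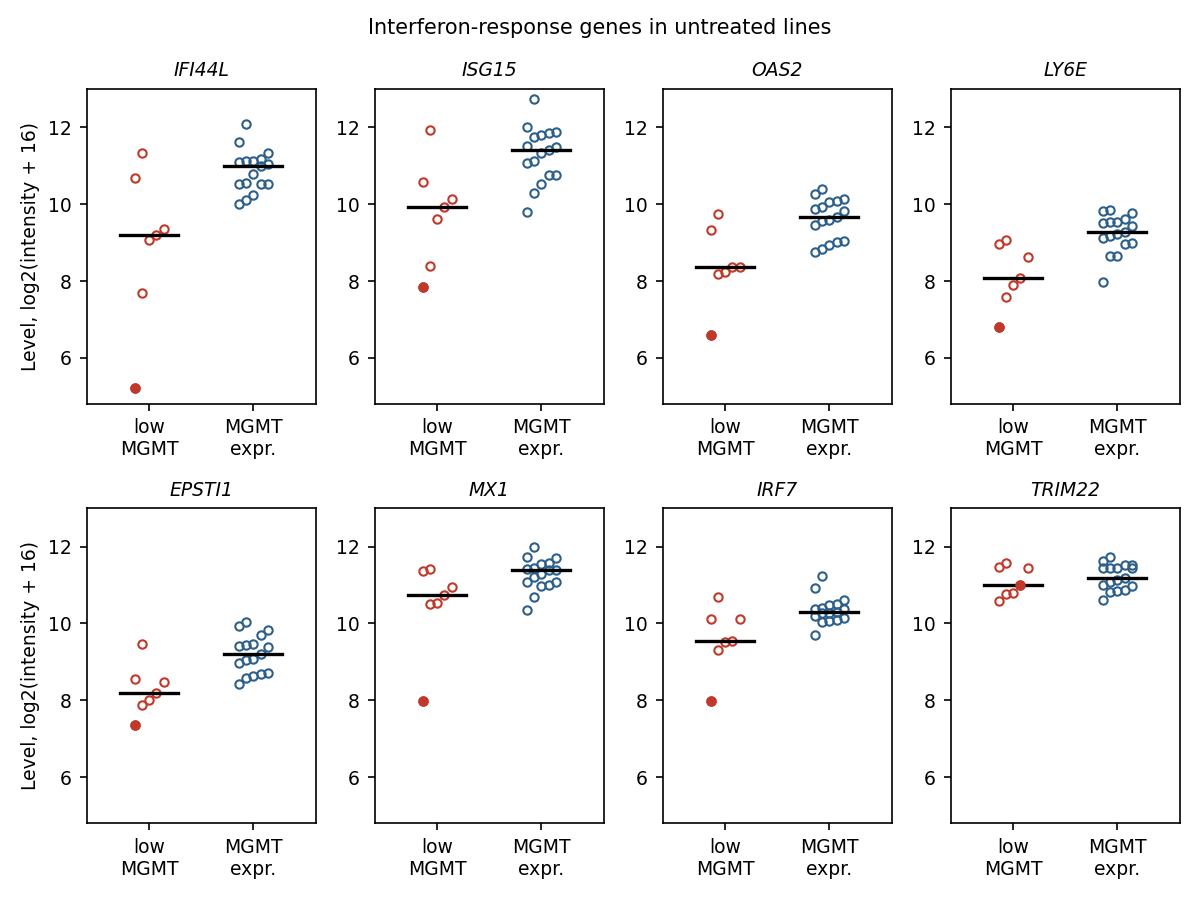
Levels (vertical axis, log2 of intensity plus 16) of 8 interferon-response genes in 7 low-MGMT lines (left in each panel) and 17 MGMT-expressing lines (right), with bars at the median and line 11 filled. IFI44L reaches 5.21 in line 11, and TRIM22 differs by -0.13 between the groups.

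Since the members lay lower together, their promoters were read for the core of the interferon response element, GAAANNGAAA, on both strands with overlaps allowed. The stretches below show it where present, in capitals, for 3 list members and EIF2AK2 on RefSeq's GRCh38.p14. They lie at chr1:1013247-1013546 on the plus strand (ISG15), chr1:78620198-78620497 on the plus strand (IFI44L), chr13:42992192-42992491 on the minus strand (EPSTI1) and chr2:37156931-37157230 on the minus strand (EIF2AK2), each written in the direction of its gene.
ISG15: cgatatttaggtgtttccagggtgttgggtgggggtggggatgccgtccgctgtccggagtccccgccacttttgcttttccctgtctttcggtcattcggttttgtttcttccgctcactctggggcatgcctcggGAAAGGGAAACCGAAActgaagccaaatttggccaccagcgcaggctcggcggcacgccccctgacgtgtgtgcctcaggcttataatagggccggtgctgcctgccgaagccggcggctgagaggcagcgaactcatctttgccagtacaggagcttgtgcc
IFI44L: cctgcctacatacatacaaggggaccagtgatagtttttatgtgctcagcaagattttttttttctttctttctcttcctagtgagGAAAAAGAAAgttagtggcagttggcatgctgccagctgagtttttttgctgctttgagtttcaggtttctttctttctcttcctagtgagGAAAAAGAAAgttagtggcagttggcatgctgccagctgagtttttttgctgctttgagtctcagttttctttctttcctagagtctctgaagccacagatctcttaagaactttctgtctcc
EPSTI1: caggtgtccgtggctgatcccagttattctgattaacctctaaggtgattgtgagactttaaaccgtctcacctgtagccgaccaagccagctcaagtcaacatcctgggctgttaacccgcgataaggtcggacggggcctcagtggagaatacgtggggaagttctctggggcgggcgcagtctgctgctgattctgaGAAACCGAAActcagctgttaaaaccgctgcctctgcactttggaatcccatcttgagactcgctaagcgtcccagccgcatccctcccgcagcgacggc
EIF2AK2: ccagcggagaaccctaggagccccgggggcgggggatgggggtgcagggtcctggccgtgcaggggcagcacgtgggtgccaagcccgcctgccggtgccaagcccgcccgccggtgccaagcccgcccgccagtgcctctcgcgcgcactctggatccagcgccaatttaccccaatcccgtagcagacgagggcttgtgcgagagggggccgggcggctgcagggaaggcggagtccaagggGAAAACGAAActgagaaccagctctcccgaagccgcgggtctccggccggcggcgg
ISG15 held 2 overlapping matches, IFI44L 2 separate ones, and EPSTI1 and EIF2AK2 1 each. Of the 30 tested list members with a promoter in the table, 22 (73.3%) held the motif, against 449 of 11054 tested genes (4.06%) and 3.57% of all promoters. Such lists are known for this element, and the share describes the list, with nothing said of what binds there in these lines.

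The other 24 lists had medians between -0.10 and 0.08, beside -0.01 for all genes. In them, 0 members passed after adjustment.

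**Figure D4:**
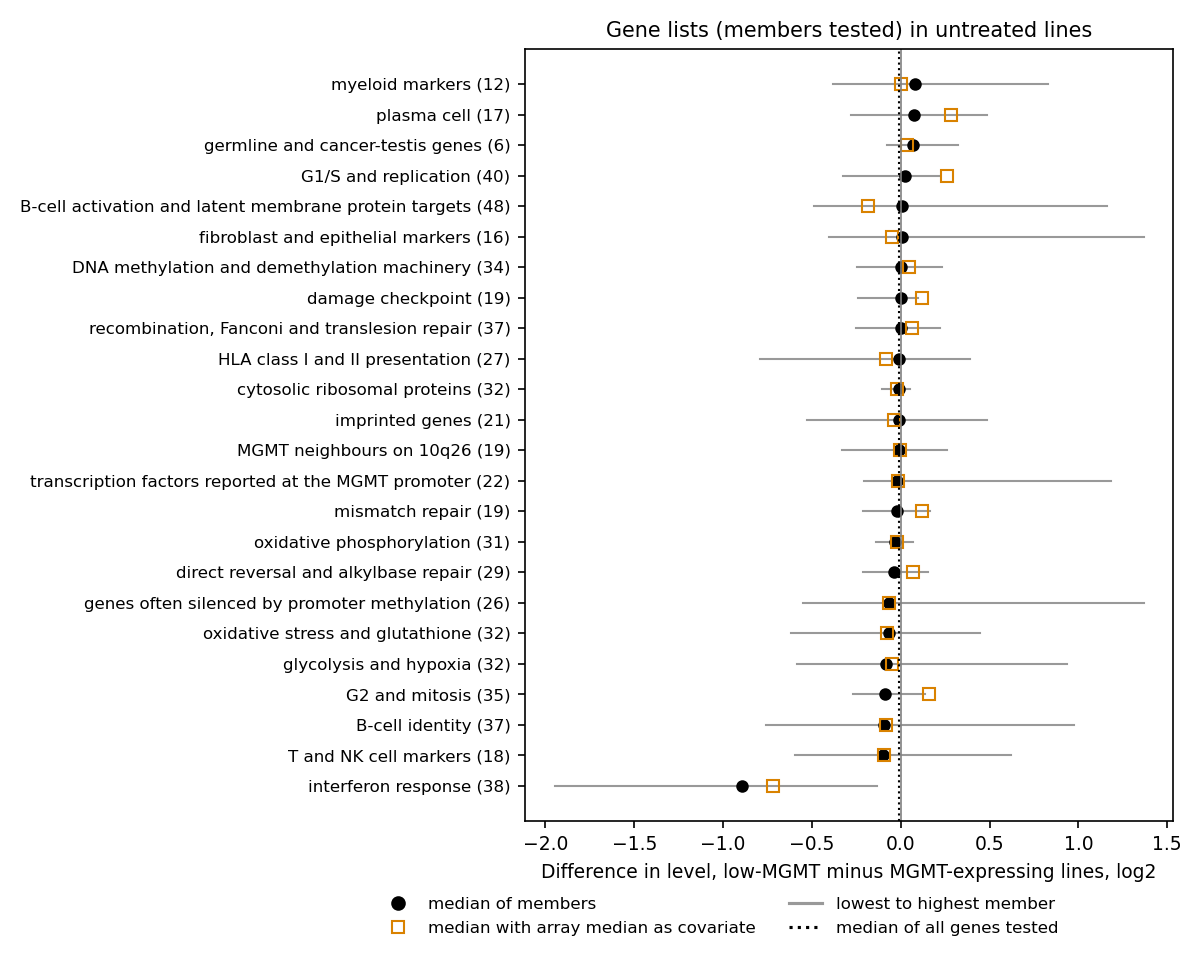
Difference in level, low-MGMT minus MGMT-expressing lines (horizontal axis, log2), for 24 gene lists (rows, with the number of members tested), with the median of the members as a filled circle, the median with the array median as covariate as an open square, and a line from the lowest to the highest member. The interferon list has a median of -0.90, and the other lists lie between -0.10 and 0.08.

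The counts of repair genes at an unadjusted p below 0.05 differed between the fits without and with the array median as covariate. Over all genes 5.89% were higher and 7.43% lower at that p without it, and 2.18% were higher and 2.82% lower with it. In the fit without it, in the list of direct reversal and alkylbase repair, 1 of 29 members was lower at an unadjusted p below 0.05 and 0 were higher, and the median was -0.04. That member was ALKBH3, which oxidises methyl groups off adenine and cytosine, at 7.29, 7.54 and 7.67 in low lines, against 7.43, 7.61 and 7.85 in expressing lines. Most of both ranges overlapped, with 2 low lines below the expressing range, and the difference was -0.14 ± 0.06 (unadjusted p = 0.030, adjusted p = 0.323), or -0.08 with the covariate (unadjusted p = 0.324). Its relative ALKBH2 differed by -0.07 ± 0.10 and MPG, the glycosylase that cuts out methylated adenine, by -0.14 ± 0.12. Of 19 mismatch repair genes 1 was higher, RPA1, the large subunit of the single-strand binding protein, by 0.17 ± 0.06 (unadjusted p = 0.016, adjusted p = 0.260), with a list median of -0.02. MSH6, a subunit of the mismatch sensor, was 9.02, 9.43 and 9.50 in low lines, against 8.83, 9.27 and 9.78 in expressing lines. The low lines lay inside the expressing range, with a difference of 0.05 ± 0.10, but 0.28 with the covariate (unadjusted p = 0.018, adjusted p = 0.942). In the recombination, Fanconi and translesion list 3 of 37 were lower and 0 higher, and the damage checkpoint list had 2 of 19 lower and 0 higher. The leading one was POLH, a polymerase that copies past damaged bases, at -0.25 ± 0.07 (unadjusted p = 0.0018, adjusted p = 0.131), with 5 low lines below all expressing lines, and at -0.16 with the covariate (unadjusted p = 0.087). With the covariate 5 of 19 mismatch repair genes were higher at an unadjusted p below 0.05 and 0 lower, with a median of 0.12. In that fit 5 of 37 recombination, Fanconi and translesion genes were higher, as were 2 of 29 direct reversal and alkylbase repair genes and 1 of 19 checkpoint genes, and 0 of these lists' genes were lower. CDKN1A, an inhibitor of cyclin-dependent kinases, differed by 0.25 ± 0.24 but by -0.29 with the covariate. With values as deposited the differences of ALKBH2 (0.21), ALKBH3 (0.09), MPG (0.06) and POLH (0.05) were positive, and with arrays centred on their medians those of MSH6 (-0.19), RPA1 (-0.09) and CDKN1A (-0.02) were negative.

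Of the genes beside MGMT on chromosome arm 10q26, 2 of 19 were lower at an unadjusted p below 0.05, beside 7.43% of all genes, 0 were higher, and the median was -0.01. The one with the smallest p, DOCK1, an exchange factor for Rac, was within 1 unit of the floor in both groups and differed by -0.14 ± 0.05. In the DNA methylation and demethylation list 2 of 34 were higher, beside 5.89% of all genes, 0 lower, and the median was 0.00. SUZ12, a subunit of the complex that methylates histone H3 at silenced genes, was 9.74, 9.92 and 10.16 in low lines, against 9.65, 9.76 and 9.96 in expressing lines. Of these, 3 low lines were above all expressing lines, and the difference was 0.14 ± 0.05 (unadjusted p = 0.015, adjusted p = 0.258). DNMT1, the maintenance methyltransferase, differed by -0.03 ± 0.06 and the de novo enzymes DNMT3A and DNMT3B by 0.12 ± 0.18 and -0.0032 ± 0.07. With values as deposited DNMT1 (0.06), DNMT3B (0.32) and DOCK1 (0.22) had positive differences, and with arrays centred on their medians SUZ12 (-0.12) and DNMT3A (-0.05) had negative ones.

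Among 22 transcription factors reported at the MGMT promoter, 3 were higher and 0 lower, beside 5.89% and 7.43% of all genes, with a median of -0.02. With the covariate 0 were higher and 0 lower, beside 2.18% and 2.82% of all genes in that fit. The leading one was LEF1, the nuclear partner of beta-catenin, at 5.12, 6.63 and 9.02 in low lines, against 5.19, 5.78 and 6.58 in expressing lines. Its 7 low lines were spread, with 4 above and 2 below the whole expressing range, and the difference was 1.18 ± 0.41 (unadjusted p = 0.0076, adjusted p = 0.204), or 0.93 with the covariate (unadjusted p = 0.096). FOSL2, a member of AP-1, differed by 0.92 ± 0.35 but by -0.32 with the covariate. Among 26 genes often silenced by promoter methylation 2 were higher and 3 lower, with a median of -0.06. In the fit with the covariate 0 of the 26 were higher and 2 lower, beside 2.18% and 2.82% of all genes. GSTP1, the glutathione transferase that detoxifies electrophiles, was lower: 9.58, 10.31 and 10.83 in low lines, against 10.43, 10.77 and 11.32 in expressing lines. With 4 low lines under the expressing range its difference was -0.55 ± 0.15 (unadjusted p = 0.0011, adjusted p = 0.125), and -0.35 with the covariate. PTPN6, the phosphatase SHP-1 of blood cells, differed by -0.36 ± 0.10 (adjusted p = 0.130), and CDH1, the epithelial adhesion protein E-cadherin, by 1.37 ± 0.51 (adjusted p = 0.237), or 0.64 with the covariate (unadjusted p = 0.323). FOSL2, PTPN6 and CDH1 were chosen after their values were seen.

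B-cell identity genes, with 1 of 37 higher and 1 lower, beside 5.89% and 7.43% of all genes, had a median of -0.09. The higher one, IKZF1, the lymphoid factor Ikaros, was 8.16, 9.01 and 9.74 in low lines, against 5.62, 8.60 and 9.13 in expressing lines. A total of 6 expressing lines were below all low lines, 3 low lines were above all expressing lines, and the difference was 0.98 ± 0.43 (unadjusted p = 0.031, adjusted p = 0.324), or 1.65 with the covariate (unadjusted p = 0.0047). In the B-cell activation list 4 of 48 were higher and 3 lower, with a median of 0.01. With the covariate 0 of this list's genes were higher and 7 lower, beside 2.18% and 2.82% of all genes, with a median of -0.18. Its member of smallest p without the covariate was BCL2, the survival factor, at -0.28 ± 0.11 (adjusted p = 0.245), or -0.22 with the covariate (unadjusted p = 0.126). VCAN, a matrix proteoglycan of monocytes, differed by 0.83 ± 0.28, with 4 low lines above all expressing lines, and was one of 3 of 12 myeloid genes higher. In the fit without a covariate, of 40 genes of G1/S and replication 1 was lower and 0 higher, with a median of 0.02, and MKI67, a protein of cycling cells, differed by -0.01 ± 0.18, or 0.11 with values as deposited. With the covariate 18 of those 40 were higher at an unadjusted p below 0.05, beside 2.18% of all genes in that fit, with a median of 0.26. DDIT4, a hypoxia and stress gene that restrains growth signalling, differed by -0.58 ± 0.24 (adjusted p = 0.299), and COX5A, a subunit of cytochrome oxidase, by -0.14 ± 0.03 (adjusted p = 0.104). With the covariate these were -0.36 for DDIT4 and -0.08 for COX5A.

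The other lists are given by their counts at an unadjusted p below 0.05, beside 5.89% of all genes higher and 7.43% lower, and by their median difference. Plasma cell genes had 1 of 17 higher, 0 lower and a median of 0.07, or 0.28 with the covariate, and HLA presentation genes 2 of 27 higher, 1 lower and -0.01. For G2 and mitosis 1 of 35 was lower, 0 higher and the median -0.09, or 0.16 with the covariate. Glycolysis and hypoxia had 1 of 32 higher, 1 lower and -0.09, oxidative phosphorylation 1 of 31 lower, 0 higher and -0.03, and cytosolic ribosomal proteins 2 of 32 lower, 0 higher and -0.01. Oxidative stress and glutathione genes, which include GSTP1, had 1 of 32 higher, 4 lower and -0.07. Germline and cancer-testis genes had 1 of 6 higher, 0 lower and 0.07, and imprinted genes 1 of 21 higher, 1 lower and -0.01. Of the markers of other cells, those of T and NK cells had 1 of 18 higher, 3 lower and -0.10, myeloid ones 3 of 12 higher, 1 lower and 0.08, and fibroblast and epithelial ones 5 of 16 higher, 3 lower and 0.00. In either direction that is 4 of 18 T and NK cell, 4 of 12 myeloid and 8 of 16 fibroblast and epithelial markers, beside 13.3% of all genes. With the array median as covariate 2 of the 18 T and NK cell markers were lower and 0 higher at an unadjusted p below 0.05. In that fit 0 of the 12 myeloid and 0 of the 16 fibroblast and epithelial markers reached that p. Over all genes it gave 2.18% higher and 2.82% lower. The part of the array median in these counts was not tested.

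Outside the lists, the gene of smallest p was PECAM1, an adhesion receptor of blood and endothelial cells. It was 7.27, 7.74 and 8.84 in low lines, against 6.01, 6.66 and 7.89 in expressing lines. All 7 low lines were above the expressing median and 3 were above every expressing line. The difference was 1.31 ± 0.24 (unadjusted p = 1.4e-05, adjusted p = 0.0927), or 2.47-fold, and 1.19 with the covariate. MAGEF1, a partner of a ubiquitin ligase that acts on an iron-sulphur assembly protein, was 8.57, 9.29 and 9.61 in low lines, against 7.72, 8.39 and 9.10 in expressing lines. It was above all expressing lines in 4 low lines, with a difference of 0.78 ± 0.16 (adjusted p = 0.0927) and 0.92 with the covariate. CCDC120, a coiled-coil protein of the centrosome, differed by 0.63 ± 0.13, with 5 low lines above the expressing range, and N4BP2, a nuclease with a kinase domain, by 0.41 ± 0.09, or by 0.42 and 0.33 with the covariate. Among the 10 higher genes of smallest p, PARTICL had means of 5.87 in low and 5.59 in expressing lines, and ESPNL 5.93 and 5.62. Both lay within 1 unit of the floor by their means, and PDE7B, GJD2 and GTF2IP12 were little brighter. Of the genes lower in low lines with the smallest p, most also lay within 1 unit of the floor. GALNT18, of the family that starts mucin-type glycans, was 5.67, 6.18 and 6.54 in low lines, against 6.19, 6.91 and 7.42 in expressing lines. All 7 low lines were below the expressing median, and the difference was -0.73 ± 0.16 (adjusted p = 0.102). KMT5C, a histone H4 methyltransferase, differed by -0.26 ± 0.05 (adjusted p = 0.0927), but by -0.17 with the covariate and 0.08 with values as deposited. SPATC1L, named for spermatogenesis and centrioles, differed by -0.69 ± 0.18 (unadjusted p = 0.00081, adjusted p = 0.123), or -0.44 with the covariate.

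Large differences ran mostly upwards, and many of them were smaller with the array median as covariate. In low-MGMT lines 71 of the 13816 genes tested were over 1 log2 unit higher and 24 of the 13816 over 1 unit lower. Of the 24 lower genes 14 (58.3%) were on the interferon list, which is 36.8% of the list's 38 tested members. As that list was chosen with earlier results of these data known, these shares are a description. With the covariate the median difference of the 71 was 0.53 in place of 1.26, and 12 of them had an unadjusted p below 0.05 in the same direction. For the 24 the median was -1.05 in place of -1.28, with 10 at that p. SALL4, CKLF, GTSF1, PTPN13 and CAPN2 were chosen after their values were seen. SALL4, a stem-cell zinc finger factor, was 9.28, 9.54 and 10.36 in low lines, against 5.55, 7.65 and 9.62 in expressing lines, and its difference was 1.69 ± 0.41 (adjusted p = 0.112) but 0.19 with the covariate. Expressing lines 7, 10, 12, 16 and 17 came closest to the low lines for SALL4. CKLF, a chemokine-like factor, differed by 1.29 ± 0.31 and by 1.37 with the covariate.

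GTSF1 and PTPN13 split the low-MGMT lines themselves. GTSF1, a zinc finger protein of the piRNA pathway in the germ line, was 9.24 in line 9, 9.44 in line 6, 9.71 in line 18 and 9.88 in line 4. It was 5.24 to 5.28, close to the floor, in low lines 11, 19 and 20, and 5.18, 5.31 and 6.92 in the lowest, median and highest expressing line. The 4 high lines were above every expressing line, and the difference was 2.15 ± 0.55 (unadjusted p = 0.00064, adjusted p = 0.123). PTPN13, a tyrosine phosphatase that binds the death receptor Fas, was 11.90 in line 11, 11.70 in line 4, 9.89 in line 6 and 9.50 in line 19. The other 3 low lines, at 7.30 to 7.53, were like the expressing lines, which had 7.19, 7.44 and 8.01, and the difference was 1.83 ± 0.45 (adjusted p = 0.115). Lines 4 and 6 were high for both genes. The SD was 2.31 for GTSF1 and 2.00 for PTPN13 in low lines, against 0.56 and 0.19 in expressing lines. The fit takes a common spread for both groups, so the standard errors and p of these genes may be too small. CAPN2, a calcium-activated protease, was lower, at 5.96, 7.16 and 8.58 in low lines, against 5.55, 9.18 and 10.25 in expressing lines. All 7 low lines were below the expressing median, while 1 expressing line was lower than any of them, and the difference was -1.68 ± 0.47 (adjusted p = 0.131).

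**Figure D5:**
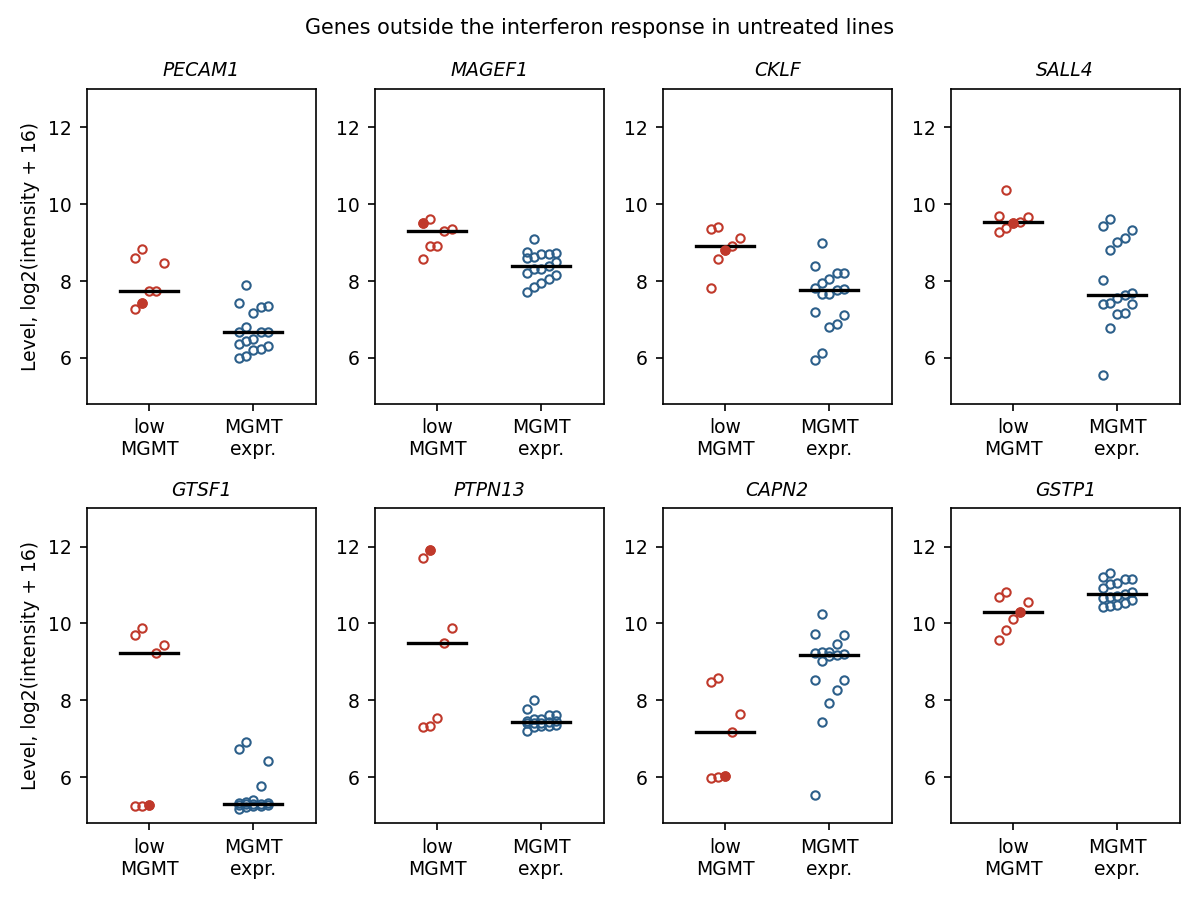
Levels (vertical axis, log2 of intensity plus 16) of 8 genes outside the interferon response in 7 low-MGMT lines (left in each panel) and 17 MGMT-expressing lines (right), with bars at the median and line 11 filled. PECAM1 and MAGEF1 are higher in every low line than the expressing median, and GTSF1 and PTPN13 are high in 4 of 7 low lines each.

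The level of MGMT also varied among the 17 expressing lines, and that variation did not choose the groups. No gene's level followed it past the threshold: 0 of 13816 genes had an adjusted p below 0.05 with limma, the smallest was 0.997, and 550 (3.98%) had an unadjusted p below 0.05. Of the 38 interferon genes 2 had a slope at that p. The interferon list mean and the MGMT level had r = -0.25 over these 17 lines. That sign is the reverse of the direction between the groups, and it was not tested. The steepest tests belonged to SYT17, DIPK2A and USE1, with slopes of 0.82, 0.89 and 0.46 per unit of MGMT, and to TRIM38, TOM1L1 and KIF2A, with slopes of -0.68, -1.93 and -0.59. TRIM38, which restrains innate immune signalling, had the smallest unadjusted p, 0.00011. Without replicate 1 of each line 1 gene, KLF15, passed. As a description across genes, which are not independent, pairs of low lines correlated with a median r of 0.946, pairs of expressing lines with 0.953, pairs of a low and an expressing line with 0.949, and duplicates with 0.984.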

How the data were processed

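Biotin-labelled cRNA of untreated cells was hybridised to arrays with 54675 probe sets. The deposited values are linear intensity values that the authors made with PLIER, per the submitters' processing notes; its version is not given in the sources used here. They start at 16 and reach 65535.

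From these, log2(intensity + 16) was quantile normalised over 52 untreated arrays, duplicates were averaged per line, and 24 numbered lines were tested. Of the 52 arrays 48 were of numbered lines. The rest, of the lymphoblastoid lines TK6 and MT1, entered the normalisation only. Probe sets with 1 symbol (41097) were named by the platform annotation, updated through RefSeq. The brightest probe set stood for a gene. The lowest 30% of genes, MGMT and 36 genes located on the Y chromosome or tied to X inactivation were left out, and 13816 remained. Other X-linked genes stayed in the test. Differences come from limma 3.58.1 (moderated, prior spread following the mean) in R 4.3.3 with the data.table package (1.17.8), with Benjamini-Hochberg adjustment and a threshold of 0.05; figures used Python 3.11.15 and matplotlib 3.10.9. The p-values measure the spread between lines, taken as equal in both groups. Where the 7 low lines were the more spread, standard errors and p may be too small. The test was checked on simulated data with independent genes and the same spread in both groups. That check does not cover unequal spreads, genes that move together by line, or the difference in array brightness.

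Members and lists were chosen with earlier results of these data known. There were 25 lists with 842 entries, 675 of them tested; genes can be on several, and 1 list is not reported here. The others were alkylbase, mismatch, and recombination repair, checkpoint, 10q26 neighbours, methylation machinery, factors at the MGMT promoter, often silenced, germline and imprinted genes, B-cell identity and activation, plasma cells, interferon, HLA, G1/S, mitosis, glycolysis, oxidative phosphorylation, ribosomal proteins, oxidative stress and markers of T and NK, myeloid, and fibroblast and epithelial cells. Named genes were the 10 with the smallest unadjusted p each way (none was called), the member of smallest p of each list, a fixed set of repair, methylation and cycle genes, and the 3 highest and 3 lowest slopes; the text picks from these and says where it adds others. Alternatives were pseudocounts of 1 and 64, values as deposited, median centring, no filter or 50%, the mean of probe sets, no trend, single arrays, a replicate block, the array median as covariate, a split of duplicates between MGMT class and genes, leaving out replicates, lines or those between 6 and 7, and a slope on MGMT.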

Additional observations from a re-analysis of the deposited data

Results flagged for a closer look

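Among 55 genes described, 3 had a low-MGMT line whose gap to the nearest other low line was large for the range of the 7. Chance flags about 1 in 20 such groups. MX1 was 7.99 in line 11 and 10.50 in the next line. SALL4 was 10.36 in line 19 and 9.70 in the next. MKI67 was 10.00 in line 20 and 9.34 in the next.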

How the results depend on the processing

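The interferon list had a negative median difference, between -1.09 and -0.64, under the alternatives that give a difference between the groups; the slope on MGMT gives none. Of the 38 tested members, 32 were lower at an unadjusted p below 0.05 in the fit of the 24 lines, beside 7.43% of all genes. With the array median as covariate the count was 14, beside 2.82%. With a slope on MGMT over 24 lines it was 21, beside 8.46%. Against expressing lines with like array medians (added after the data were seen) it was 5, beside 1.95%. With arrays centred on their medians it was 36, beside 23.3%, and with values as deposited 23, beside 0.355%. When single lines were left out it was 21 to 35, beside 5.59% to 9.55%. In place of 0 genes passing across all genes, there were 5691 with values as deposited, 296 with arrays centred on their medians, 1 without a filter (TMEM200C), 5 with the mean of probe sets (CAGE1, CFC1B, KMT5C, N4BP2 and PARTICL), 88 with single arrays, 6 without lines between 6 and 7, and 0 to 24 when a replicate or line was left out. With a replicate block on single arrays 85 passed. Replicate numbers were not taken as pairs: the deviations of same-numbered arrays correlated at -0.32 to 0.65 over 276 pairs of lines, 123 of them above 0.1. Within expressing lines 0 slopes passed under the other alternatives, and 0 to 1 over the replicates and lines left out. The cause of these shifts was not tested.

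Directions of small differences turned under some settings, as did that of the larger difference of FOSL2. In the limma fit without a covariate FOSL2 differed by 0.92 ± 0.35. With values as deposited ALKBH2 was 0.21, ALKBH3 0.086, MPG 0.058, POLH 0.052, DNMT1 0.060, DNMT3B 0.32, DOCK1 0.22, KMT5C 0.078 and MKI67 0.11. With arrays centred on their medians MSH6 was -0.19, RPA1 -0.091, SUZ12 -0.12, DNMT3A -0.050 and CDKN1A -0.022. With the covariate ALKBH2 was 0.15, DNMT1 0.13, DNMT3A -0.070, DNMT3B 0.025, CDKN1A -0.29, MKI67 0.33 and FOSL2 -0.32. Against the expressing lines with like array medians MPG was 0.037, ALKBH2 0.13, DNMT1 0.093, CDKN1A -0.28, MKI67 0.25 and FOSL2 -0.43. Without lines between 6 and 7 ALKBH2 was 0.055 and DNMT3B 0.022. With a pseudocount of 1 DNMT3B was 0.000267. With classes from replicate 1 and genes from replicate 2 MSH6 was -0.0036 and DNMT3B 0.014, and in the reverse MKI67 was 0.035. When replicates or single lines were left out, MSH6 ran between -0.0036 and 0.10, DNMT3B between -0.027 and 0.023 and MKI67 between -0.14 and 0.050. Probe sets near the floor, more numerous in expressing lines, limit what dim genes can show.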

Other observations

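Some further genes over 1 log2 unit apart kept an unadjusted p below 0.05 with the array median as covariate, and all of them were chosen after their values were seen. EHD3, which remodels endosome membranes, was 5.66, 7.03 and 8.37 in the lowest, median and highest low-MGMT line, against 5.37, 5.74 and 6.61 in MGMT-expressing lines. It was above every expressing line in 4 low lines, with a difference of 1.13 ± 0.28 (limma, adjusted p = 0.115) and 0.98 with the covariate. KCNMA1, a calcium-activated potassium channel, was 5.26, 6.45 and 9.61 in low lines, against 5.19, 5.52 and 6.97 in expressing lines. Most expressing lines were near the floor, 3 low lines were above all of them, and the difference was 1.42 ± 0.41 (adjusted p = 0.132). CMTM3, of the same family as CKLF, differed by 1.11 ± 0.30 and by 0.97 with the covariate. DNASE1L3, a secreted nuclease that clears DNA from dying cells, differed by 1.26 ± 0.42 and by 1.20 with the covariate.

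IFITM2, an antiviral membrane protein not on the interferon list, was 8.62, 10.19 and 11.09 in low lines, against 10.36, 10.89 and 12.19 in expressing lines. It was below every expressing line in 5 of 7 low lines, with a difference of -1.02 ± 0.27 (adjusted p = 0.123) and -0.86 with the covariate. Its near-identical relatives IFITM1 and IFITM3 may share its probes, so the value is uncertain as to which of them it measures.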
